A study of Mus musculus with 12 samples.

Results

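Inguinal white fat (iWAT), a subcutaneous pad in the groin, was compared with epididymal white fat (eWAT), a visceral pad that lies along the epididymis inside the abdominal cavity. The comparison used 6 of the 12 RNA sequencing libraries of a survey of 4 mouse fat depots, 3 from iWAT and 3 from eWAT, chosen by their labelled tissue alone and fitted without the other 6. All came from male C57BL/6 mice aged 8 weeks, which received no treatment and were kept at ambient temperature, so depot was the 1 labelled difference between the groups. The labels do not say whether libraries of a depot came from separate animals or from pools, so that p-values reflect only how far these samples spread, which may be technical. Levels are CPM (read counts divided by library sizes that were adjusted with TMM factors), and differences are log2 values, iWAT minus eWAT, with a standard error (SE) from the quasi-likelihood test of edgeR. In bulk tissue, fewer cells of a type and less RNA per cell cannot be told apart.

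Subcutaneous and visceral fat arise from different mesoderm and keep different homeobox and T-box transcription factor programmes in their progenitors and adipocytes. Visceral pads are covered by mesothelium, a flat epithelium of keratins, uroplakins and mesothelin under the control of the factor Wt1. The inguinal pad of the mouse has no such cover, encloses a lymph node, and is the white depot best known for forming thermogenic, beige adipocytes.

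The iWAT libraries differed widely among themselves. Total counts were 21670017 to 25467294 in iWAT and 23793792 to 29262554 in eWAT, and 14676 of 23420 genes passed the filter on low counts. The root mean square distance between libraries, in log2 CPM over tested genes, was 0.473 to 1.32 among iWAT libraries, 0.38 to 0.539 among eWAT libraries and 0.779 to 1.58 between depots, and iWAT 2 lay closer to each eWAT library than to iWAT 1 or 3. The summed level of 11 B cell markers was 2246, 128 and 3039.8 CPM in iWAT 1 to 3 and 13.3, 18.4 and 65.8 CPM in eWAT 1 to 3. The 13 T cell markers summed to 1628, 105 and 2490.4 CPM in iWAT and 31.6, 32 and 30.3 CPM in eWAT. Lymphocyte RNA was therefore abundant in iWAT 1 and 3 and much lower in iWAT 2. The 16 pan-adipocyte genes, the check of the labelled tissue, were present in every library and summed to 20949, 35124 and 13409 CPM in iWAT and 33382, 34777 and 30638 CPM in eWAT. Of the eWAT libraries, eWAT 2 had the highest salivary gland sum (541, 4039 and 541 CPM in eWAT, of which 16 list members were in the table and Smr2 and Klk1b22 had no count). Library eWAT 2 also had 40.7 CPM of Crisp1, a secretory gene of the epididymis, out of 42.4 CPM for its epididymis and testis list. Of that list, 14 of 21 genes had no count in any eWAT library. Crisp1 was not particular to epididymal fat. Scaled over all 12 libraries, it averaged 224 CPM (43.3 to 451) in supraclavicular brown fat, 7.87 in interscapular brown fat and 12.9 in eWAT. eWAT 3 had the highest level of Krt8, a simple epithelial keratin (20.7, 18.4 and 109 CPM).

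**Figure D1:**
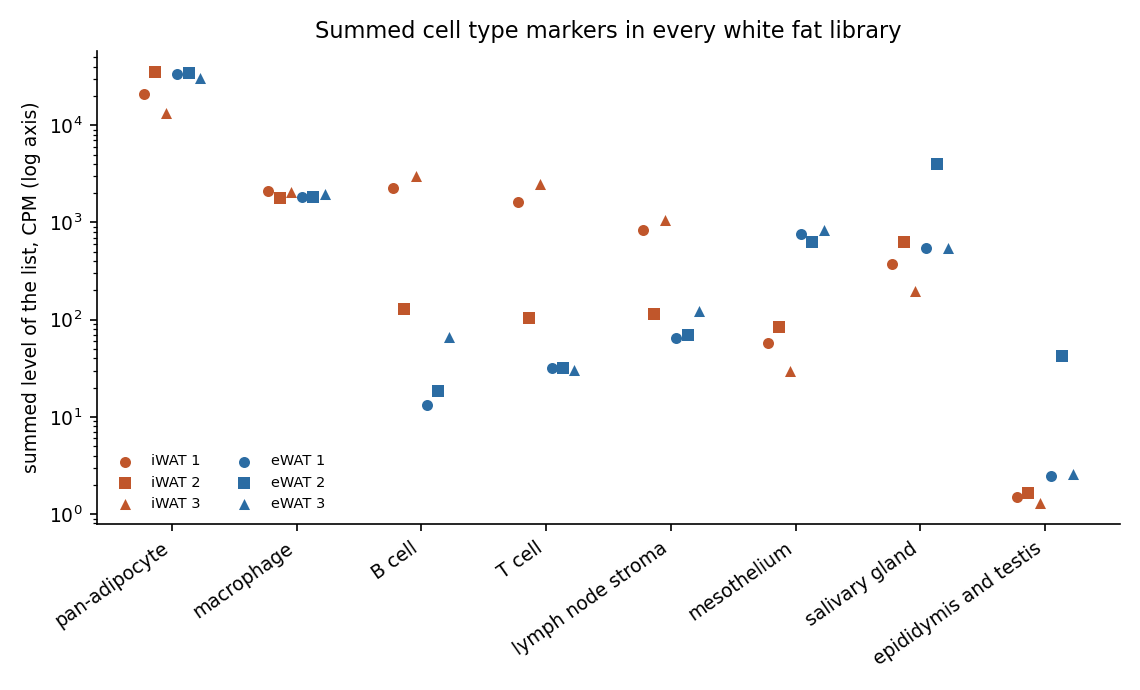
Summed CPM of marker lists (log axis) in iWAT libraries (orange) and eWAT libraries (blue), with a circle, square or triangle for replicates 1, 2 and 3. B and T cell sums are highest in iWAT 1 and 3. Mesothelium sums are at least 623 CPM in eWAT and at most 83.2 CPM in iWAT. Salivary and epididymis sums are highest in eWAT 2, where Crisp1 gives 40.7 of the 42.4 CPM of the epididymis sum.

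The depots differed in genes of body position, surface epithelium and secreted signals, and of the genes that passed with edgeR more were lower than higher in iWAT. Of 14676 tested genes, 210 passed an adjusted p of 0.05 (1.43%), 48 higher in iWAT (0.327%) and 162 lower (1.1%). In all 210 the 3 iWAT libraries lay on the same side of the 3 eWAT libraries without overlap, a pattern that 35.2% of tested genes had (16% with iWAT higher and 19.2% with iWAT lower). A stricter group, called even here, also had a span of at most 1 log2 unit among the libraries of each depot (CPM with a prior count of 2). It held 129 of the 210 (0.879% of tested genes), 22 higher in iWAT (0.15%) and 107 lower (0.729%). Without overlap but not past the threshold were 2300 genes on the high side and 2656 on the low side. The lymphocyte-poor iWAT 2 was the lowest iWAT library in 85.6% of the former and the highest in 80.7% of the latter. Of the genes that passed in each direction these shares were 39.6% and 48.8%, and of all tested genes 47.6% and 46.0%. The test favours genes with a small spread among iWAT libraries, so this contrast follows in part from the test.

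The calls rested on few libraries. With any 1 eWAT library left out, 0 genes passed with edgeR, and 2174, 2391 and 2408 genes had an unadjusted p under 0.05 without eWAT 1, 2 and 3. Leaving out iWAT 1 left 10 genes, leaving out iWAT 3 left 182, and leaving out iWAT 2 gave 9868. With iWAT 2 as the only inguinal library, assumed to vary like the eWAT libraries, 1048 genes passed, 443 higher in iWAT (2.9% of the genes tested there) and 605 lower (3.97%), among them 193 of the 209 genes of the comparison of 3 against 3 that could be tested. All 209 kept their direction, which the lack of overlap between depots largely fixed in advance. Other tools called more genes in the comparison of 3 against 3, DESeq2 3040 (20.7%, of which 64.0% were higher in iWAT) and limma-voom with quality weights 10941 (74.6%, of which 50.6% were higher). The direction of most calls thus turned with DESeq2. It did so also in a fit of all 12 libraries (61.5% higher) and, by a small margin, without iWAT 2 (51.7% higher). An unadjusted p under 0.05 in edgeR was reached by 4304 genes (29.3%). Counts of list members from these settings are to be read against these shares, and a gene is said to pass, without a tool being named, where it passed with edgeR in the 6 libraries.

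**Figure D2:**
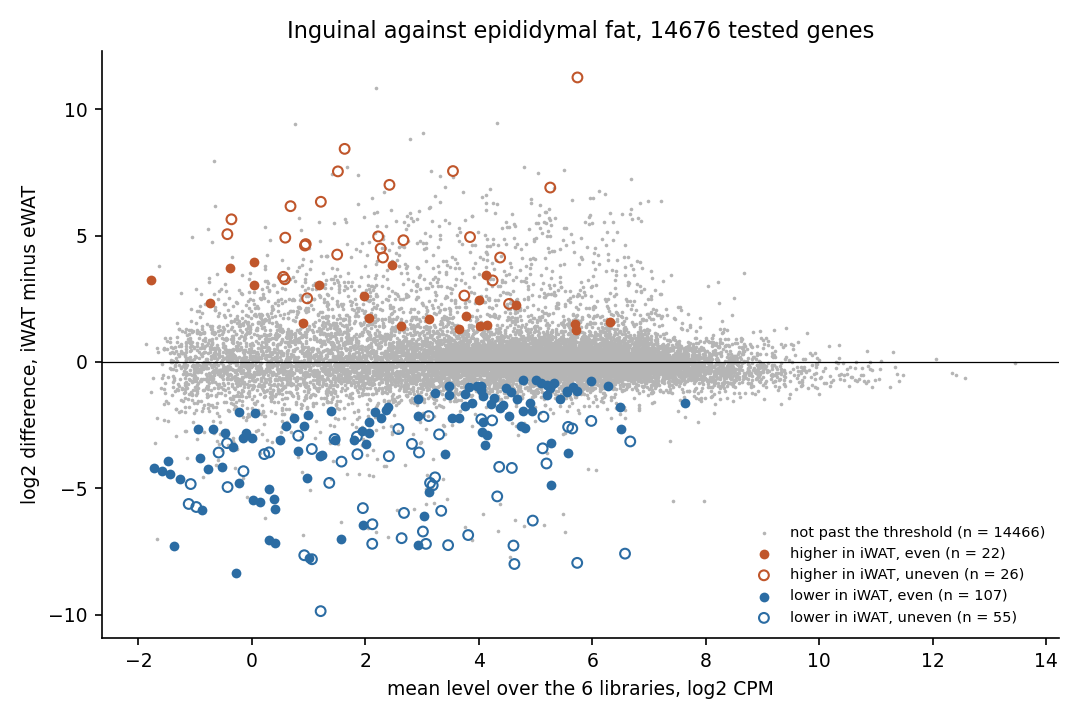
Log2 difference, iWAT minus eWAT, against the mean log2 CPM of the 6 libraries for 14676 tested genes. Filled points passed the threshold and were even within each depot (22 higher, 107 lower), open points passed without being even, and genes that passed lie mostly below 0.

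Several posterior homeobox genes were higher in inguinal fat. Hoxc10, a posterior homeobox gene (GRCm38 chromosome 15, 102966796 to 102971893), stood at 19.6, 38.6 and 11.3 CPM in iWAT 1 to 3 and 0.0391, 0.263 and 0.0694 CPM in eWAT 1 to 3. All iWAT libraries were far above all eWAT libraries (log2 difference 7.55, SE 0.82, adjusted p = 0.0191). Hoxa10 (chromosome 6, 52231197 to 52240854) stood at 9.17, 17.1 and 5.72 CPM in iWAT 1 to 3 and 0.0781, 0.0875 and 0.0694 CPM in eWAT 1 to 3 (log2 difference 7.01, SE 0.60, adjusted p = 0.0119), and its neighbour Hoxa9 at 7.48, 16.1 and 4.56 CPM in iWAT against 0.352, 0.613 and 0.624 in eWAT (log2 difference 4.13, SE 0.59, adjusted p = 0.04). Both had their highest level in iWAT 2 and no overlap between depots. Hoxc9, the next gene of the Hoxc cluster, overlapped between the depots at 8.78, 17.2 and 5.43 CPM in iWAT against 7.77, 5.25 and 5 in eWAT (log2 difference 0.80, SE 0.46, adjusted p = 0.265), and Hoxc8 was on the other side at 69.9, 123 and 39.7 CPM in iWAT against 190.2, 186 and 174 in eWAT (log2 difference -1.24, adjusted p = 0.133).

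Some more anterior Hox genes were lower in inguinal fat. Hoxa5, which patterns the trunk at a more anterior level, fell in iWAT and was even, at 3.97, 6.16 and 3.35 CPM in iWAT 1 to 3 and 21.2, 19.8 and 21.1 CPM in eWAT 1 to 3 (log2 difference -2.20, SE 0.26, adjusted p = 0.0241). Hoxc4 fell too, at 5.31, 8.24 and 3.46 CPM in iWAT against 30.3, 25.4 and 26.1 in eWAT (log2 difference -2.27, SE 0.33, adjusted p = 0.0431). Of 9 tested Hoxa genes 2 were higher and 1 lower, and of 6 tested Hoxc genes 1 was higher and 1 lower. None of 8 Hoxb and 5 Hoxd genes passed with edgeR, although 7 of the 8 Hoxb genes had a negative difference (list median -0.73, against 0.01 over all tested genes). Hoxb4 and Hoxd8, both even, had log2 differences of -0.68 (adjusted p = 0.144) and -0.96 (adjusted p = 0.0942). An unadjusted p under 0.05 was reached by 5 and 3 genes of the Hoxb and Hoxd lists, and DESeq2 called 2 and 2 and voom 6 and 3, beside 29.3%, 20.7% and 74.6% of all tested genes. Before adjustment and with DESeq2 these Hoxb genes were all lower in iWAT. The Hoxd genes were mixed, with 1 higher and 2 lower before adjustment and 1 higher and 1 lower with DESeq2. Log2 differences of the 5 Hoxd genes ran from -0.96 to 2.30. Hox genes lie close together and their annotated spans can overlap, and the strand setting of the counting is not given in the sources used here, so reads of neighbours may be shared.

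**Figure D3:**
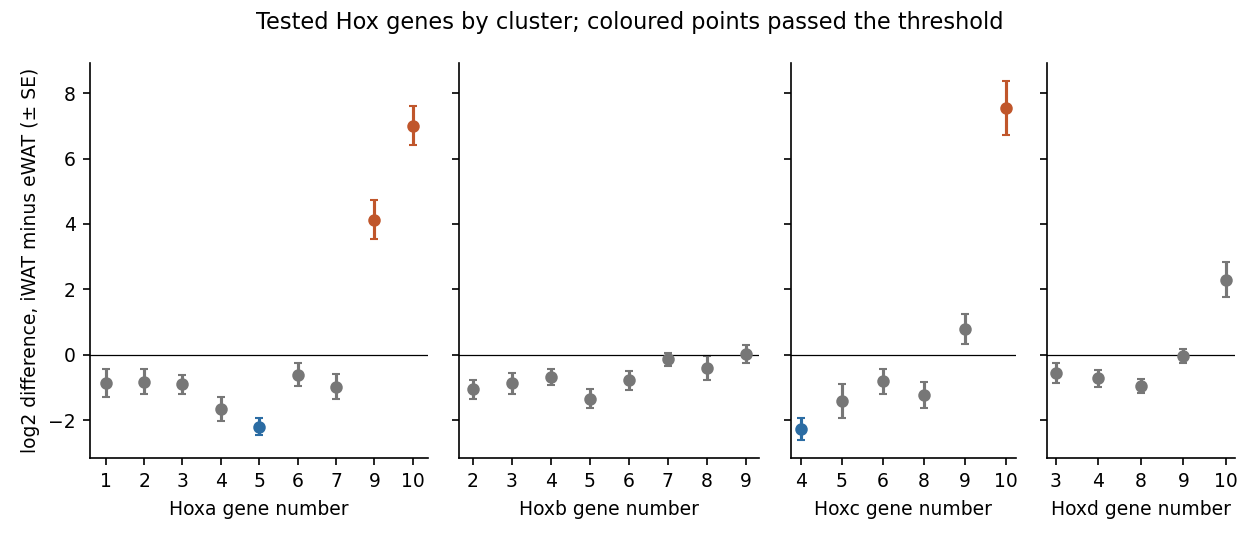
Log2 difference, iWAT minus eWAT, with its SE for each tested Hox gene, in order of gene number within the Hoxa, Hoxb, Hoxc and Hoxd clusters. Hoxa9, Hoxa10 and Hoxc10 stand high above 0 and passed the threshold, while Hoxa5 and Hoxc4 passed below 0 and the grey points did not pass.

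Other regional factors of limb and body wall had 4 genes higher and 2 lower in iWAT of 18 tested. Tbx15, a T-box factor of the limb, skin and skeleton (chromosome 3, 99240381 to 99354259), stood at 24, 43.6 and 15.8 CPM in iWAT 1 to 3 and 0.586, 0.744 and 1.35 CPM in eWAT 1 to 3 (log2 difference 4.94, SE 0.55, adjusted p = 0.0197). Lhx8, a LIM homeobox factor, stood at 5.23, 4.99 and 3.54 CPM in iWAT against 0, 0.0875 and 0.0694 in eWAT (log2 difference 6.34, SE 0.65, adjusted p = 0.0169), and En1, the engrailed homeobox factor of ventral ectoderm and hindbrain, had a log2 difference of 3.27 (adjusted p = 0.0454). The Iroquois homeobox gene Irx1 was the even member among them, at 1.61, 2.04 and 2.11 CPM in iWAT against 0.117, 0.175 and 0.0694 in eWAT (log2 difference 3.97, SE 0.39, adjusted p = 0.0153). Shox2, a homeobox gene of the proximal limb, showed the same separation at 7.08, 13.8 and 3.21 CPM in iWAT against 0.508, 0.175 and 0.208 in eWAT but just missed the threshold (log2 difference 4.73, adjusted p = 0.0501). Tbx4, a hind limb T-box factor, and Hand2, a factor of limb bud and heart, went the other way with few reads. Tbx4 had 2 counts in all of iWAT and 73 in eWAT, for a depth-scaled ratio of 34.7 (adjusted p = 0.0481; 95% interval from counting 9.27 to 292), and Hand2 had 1 and 79, for a depth-scaled ratio of 75.1 (adjusted p = 0.0431; 95% interval from counting 13.1 to 3004). Counting intervals cover counting error only. The median log2 difference of the list was 0.57, and 1.07 with iWAT 2 alone.

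Further genes that led the inguinal side had varied roles. Mmp3, the matrix protease stromelysin, stood at 36.6, 59.1 and 22.1 CPM in iWAT 1 to 3 and 1.84, 2.58 and 2.29 CPM in eWAT 1 to 3 (log2 difference 4.13, SE 0.42, adjusted p = 0.0168). Il1r2, the decoy receptor of interleukin-1, stood at 8.78, 20.6 and 7.51 CPM in iWAT against 0.43, 0.263 and 0.59 in eWAT (log2 difference 4.81, SE 0.57, adjusted p = 0.0241). Both were highest in iWAT 2, the library with few lymphocyte transcripts. Tmem26, a surface marker of beige cells, stood at 11.2, 2.91 and 13.6 CPM in iWAT against 0.43, 0.263 and 0.52 in eWAT (log2 difference 4.49, SE 0.69, adjusted p = 0.0468) and was the only 1 of 11 tested beige markers to pass (DESeq2 called 4), and Kcna2, a voltage-gated potassium channel, stood at 44.9, 18.1 and 39.5 CPM in iWAT against 2.66, 5.38 and 2.95 in eWAT (log2 difference 3.22, SE 0.47, adjusted p = 0.0406). Sorcs2, a sorting receptor of the VPS10 family, stood at 18.9, 21.1 and 29.2 CPM in iWAT against 2.31, 5.51 and 3.4 in eWAT (log2 difference 2.62, SE 0.38, adjusted p = 0.04). Tmem26 and Kcna2 were lowest in iWAT 2 within iWAT, as were the B and T cell markers, and the part of lymph node RNA in their difference was not tested.

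The even inguinal genes were those in which iWAT 2 lay near iWAT 1 and 3. Ccl8, a chemokine of monocytes and T cells (chromosome 11, 82115185 to 82116799), stood at 32.6, 23.4 and 40.02 CPM in iWAT 1 to 3 and 2.34, 3.2 and 3.37 CPM in eWAT 1 to 3 (log2 difference 3.43, SE 0.28, adjusted p = 0.0109). Nrn1, the neuronal surface protein neuritin, stood at 8.26, 12 and 10.9 CPM in iWAT 1 to 3 and 0.586, 0.919 and 0.659 CPM in eWAT 1 to 3 (log2 difference 3.84, SE 0.30, adjusted p = 0.00977). Hs3st3b1, which adds sulphate to heparan sulphate chains, stood at 29.9, 17.9 and 33.9 CPM in iWAT against 4.3, 4.77 and 5.76 in eWAT (log2 difference 2.46, SE 0.29, adjusted p = 0.023). In each of these the lowest inguinal library was well above the highest epididymal one. The rest of the leading even genes differed less. Fgf13, an intracellular FGF homologue, had a log2 difference of 1.82 (adjusted p = 0.0399), Itm2a, a membrane protein, 1.52 (adjusted p = 0.0335), Gngt2, a G protein gamma subunit, 1.45 (adjusted p = 0.0454) and Col27a1, a fibrillar collagen chain, 1.40 (adjusted p = 0.0361). Of these, Ccl8, Hs3st3b1, Gngt2 and Col27a1 were lowest in iWAT 2 within iWAT.

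**Figure D4:**
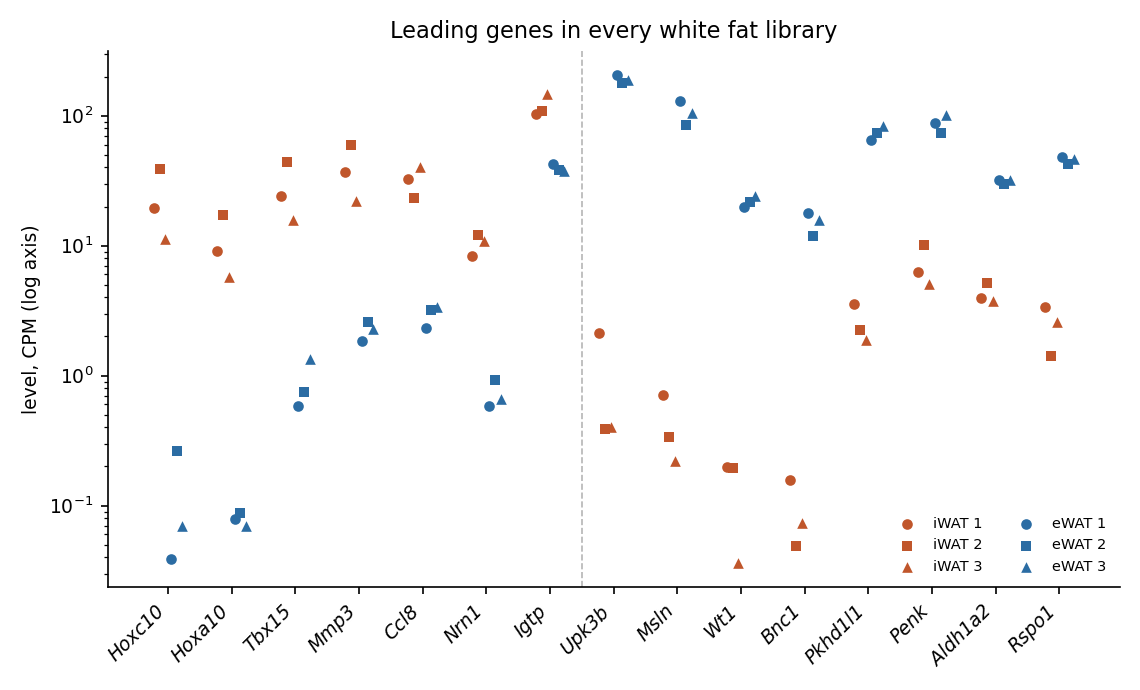
CPM (log axis) of 15 leading genes in each library, iWAT orange and eWAT blue, with a circle, square or triangle for replicates 1, 2 and 3 and a dashed line between the genes higher and lower in iWAT. The depots do not overlap for any of the 15, and the iWAT points of Hoxc10 are more spread than those of Ccl8, Nrn1 and Igtp.

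Several interferon-inducible GTPases were among the even inguinal genes, and the family was put together as a list after its values were seen. These proteins, the guanylate-binding proteins (Gbp) and the immunity-related GTPases (such as Igtp and Irgm), act against pathogens inside cells and are switched on by interferon through promoter elements of paired GAAA boxes. The upstream sequences of 3 immunity-related members that lie close together on chromosome 11 are shown because this element stands in each of them. They are the 110 bases before the start in RefSeq on GRCm38.p6, 5′ to 3′ on the + strand, with capitals marking each stretch of GAAA, any 2 bases and GAAA again, or the same on the other strand (TTTC, any 2 bases, TTTC).
Gm12250 (chr11:58183733-58183842): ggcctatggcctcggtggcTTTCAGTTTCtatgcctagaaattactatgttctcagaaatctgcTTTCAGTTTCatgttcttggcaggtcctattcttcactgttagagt
Igtp (chr11:58199446-58199555): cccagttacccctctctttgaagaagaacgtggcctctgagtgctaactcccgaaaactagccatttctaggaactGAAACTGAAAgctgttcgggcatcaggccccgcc
Irgm2 (chr11:58214867-58214976): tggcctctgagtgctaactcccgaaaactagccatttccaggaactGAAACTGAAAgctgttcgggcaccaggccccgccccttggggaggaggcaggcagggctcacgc
Gm12250 has matches that begin 91 and 46 bases before the start, Igtp 1 match at 34 bases and Irgm2 1 match at 64 bases. The longest stretch shared by the printed sequences of Igtp and Irgm2 is 38 bases. Of the 21 GTPase genes, 11 were found in the promoter table, with 12 starts. A match within 250 bases before the start stands at 10 of these 12, against 978 of all 32851 starts (2.98%). A match describes the sequence and shows no binding or response.

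Gm12250, for which RefSeq gives the synonym Irgb10, stood at 34.7, 35.7 and 55.3 CPM in iWAT 1 to 3 and 6.76, 9.5 and 10.03 CPM in eWAT 1 to 3 (log2 difference 2.26, SE 0.27, adjusted p = 0.0231). Igtp stood at 102, 109 and 146 CPM in iWAT 1 to 3 and 42.8, 38.1 and 37.8 CPM in eWAT 1 to 3 (log2 difference 1.59, SE 0.17, adjusted p = 0.0191). Irgm2 stood at 113, 161 and 126 CPM in iWAT against 67.7, 73.9 and 80.1 in eWAT (log2 difference 0.85, SE 0.17, adjusted p = 0.0795) and did not pass. In all 3 genes every inguinal library exceeded every epididymal one, and iWAT 2 was the lowest inguinal library in none of them. Gbp6 rose by 1.28 on the log2 scale (adjusted p = 0.0265), Gbp10 by 1.70 (adjusted p = 0.0431), and the predicted GTPase genes Gm4951 and Gm4841 by 1.29 and 1.55 (adjusted p = 0.045 for each). In all, 6 of the 21 passed as higher and 0 as lower, beside 0.327% and 1.1% of all tested genes. Without overlap stood 16, all higher in iWAT, beside 16% of all tested genes. The median log2 difference of the list was 1.29. With iWAT 2 alone the list median was 0.55, and its members ran from -0.00737 (Gbp4) to 2.03 (Gm12250). Other members were far lower in iWAT 2 than in iWAT 1 and 3, as the lymphocyte markers were, such as Ifi47 at 97.7, 25.9 and 157 CPM in iWAT against 15.4, 13.9 and 15.3 in eWAT (adjusted p = 0.0972) and Gbp8 at 35.8, 2.91 and 56.3 CPM in iWAT against 1.95, 1.79 and 1.87 in eWAT (adjusted p = 0.103). Gbp2 overlapped between the depots at 144, 149.6 and 138 CPM in iWAT against 142, 130.4 and 121 in eWAT. Gbp6 and Gbp10, and Tgtp1 and Tgtp2, are near-identical copies, and the annotated spans of Igtp and Irgm2 overlap, so the split of reads among them is uncertain.

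**Figure D5:**
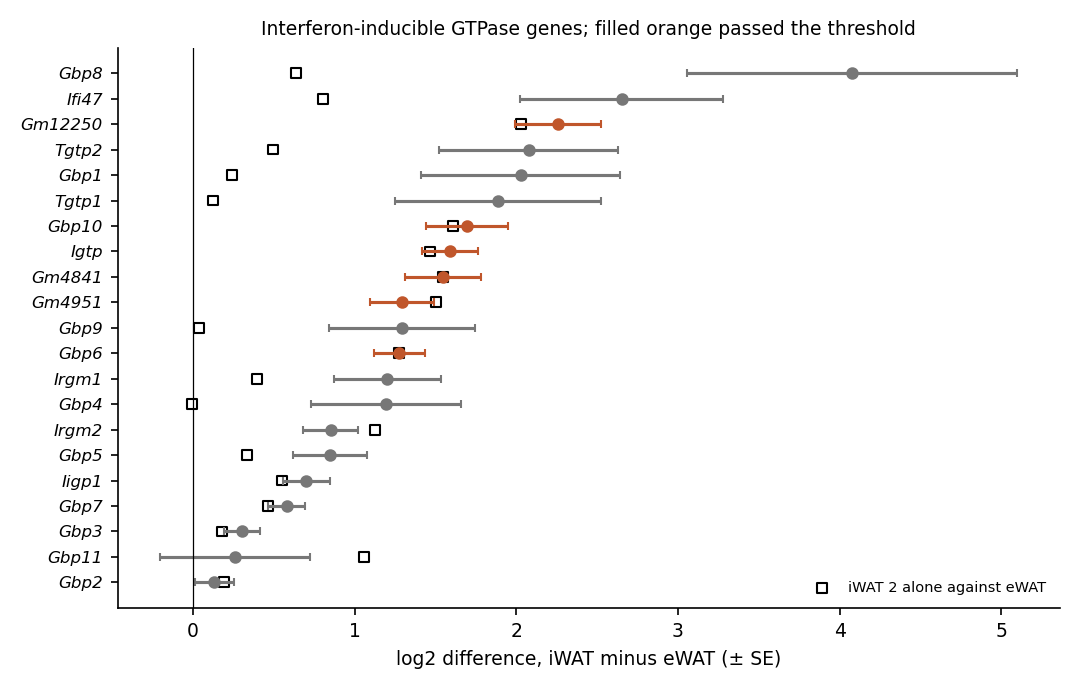
Log2 difference, iWAT minus eWAT, with its SE for 21 interferon-inducible GTPase genes (circles, orange where the threshold was passed) and the same difference with iWAT 2 as the only inguinal library (open squares). The 21 circles lie above 0, and the squares of genes such as Ifi47 and Gbp8 lie well below their circles.

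Lymph node genes differed by large folds and gave few calls. Glycam1, a ligand of L-selectin made by the high endothelial venules of lymph nodes, stood at 135, 8.44 and 176 CPM in iWAT 1 to 3 and had 3 counts in all of eWAT. It was present in each iWAT library, with a depth-scaled ratio of 2961 (adjusted p = 0.045; 95% interval from counting 1013 to 14362), and was the only 1 of 10 tested lymph node stroma genes to pass with edgeR. Of the 10, 8 were higher before adjustment (p under 0.05), with DESeq2 calling 8 higher, beside 29.3% and 20.7% of all tested genes in either direction. None of the 11 B cell and 13 T cell markers passed with edgeR, although in each of these genes every iWAT library exceeded every eWAT library. Of all tested genes, 16% lay higher in iWAT in this way. All of these markers had an unadjusted p under 0.05 and were called by DESeq2, and voom called 11 and 13. Of all tested genes, 29.3%, 20.7% and 74.6% did so. The list medians were 5.86 and 5.69. Cd79b, a chain of the B cell receptor, stood at 282, 16.7 and 379.9 CPM in iWAT against 2.15, 2.36 and 9.61 in eWAT (adjusted p = 0.0985), and Cd22, a B cell lectin, at 305, 17.2 and 426 CPM in iWAT against 1.05, 1.66 and 6.24 in eWAT (adjusted p = 0.0921). Lck, a T cell kinase, stood at 192, 12.6 and 300.4 CPM in iWAT against 5.51, 4.46 and 4.37 in eWAT (adjusted p = 0.0905), and Tcf7, a T cell transcription factor, at 267, 15.9 and 394 CPM in iWAT against 3.2, 2.63 and 2.84 in eWAT (adjusted p = 0.0775). In all 4, iWAT 2 was far below iWAT 1 and 3 and still above every eWAT library. The B cell list median with iWAT 2 alone was 2.20 and the T cell list median 1.92. The 11 MHC class II genes and 14 cell division genes had positive differences throughout and none passed (medians 1.26 and 1.47). At an unadjusted p under 0.05 stood 9 and 8 of them, DESeq2 called 9 and 6 and voom 11 and 14. These compare with 29.3%, 20.7% and 74.6% of all tested genes. Levels in iWAT 1 and 3 were again above iWAT 2 for H2-Aa (963, 388 and 1156 CPM in iWAT), Cd74 (1429, 574 and 1615 CPM), Mki67 (87.1, 22.5 and 110.1 CPM) and Top2a (60.6, 14.1 and 81.8 CPM).

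Mesothelial genes marked epididymal fat, with 11 of 12 tested lower in iWAT and a list median of -6.77. The list summed to 57.1, 83.2 and 29.6 CPM in iWAT and 769.6, 623 and 833 CPM in eWAT. The median tested member was far lower in iWAT than the sums show, at 0.61, 0.315 and 0.273 CPM against 59.4, 40.5 and 69.1 CPM in eWAT. Msln, the surface protein mesothelin (chromosome 17, 25748613 to 25754378), stood at 0.708, 0.339 and 0.219 CPM in iWAT 1 to 3 and 129, 84.8 and 104 CPM in eWAT 1 to 3 (log2 difference -7.95, SE 0.46, adjusted p = 0.00724). Upk3b, a uroplakin of the mesothelial surface (chromosome 5, 136038496 to 136046487), stood at 2.13, 0.388 and 0.401 CPM in iWAT 1 to 3 and 205, 177 and 187 CPM in eWAT 1 to 3 (log2 difference -7.59, SE 0.75, adjusted p = 0.0162). Another uroplakin, Upk1b, stood at 0.512, 0.145 and 0.255 CPM in iWAT against 54, 42.8 and 48.7 in eWAT (log2 difference -7.27, SE 0.41, adjusted p = 0.00724). In each of the 3 the lowest eWAT library was at least 83.3 times the highest iWAT library, and no list member was at 0 in either depot. Keratins of simple epithelium followed, with log2 differences of -6.28 for Krt19 (adjusted p = 0.0148), -8.00 for Krt8 (adjusted p = 0.0376), -5.98 for Krt18 (adjusted p = 0.0168) and -5.89 for Krt7 (adjusted p = 0.0197). Krt14, listed here under skin and mammary epithelium, was also lower in iWAT, at 0.197, 0.0485 and 0.0729 CPM in iWAT against 27.5, 8.23 and 14.2 in eWAT (log2 difference -7.20, SE 0.74, adjusted p = 0.0168), as was Perp, a membrane protein of desmosomes (-3.65, adjusted p = 0.0199).

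Transcription factors of the abdominal organs and their linings were lower in iWAT in 6 of 11 cases and higher in 0. Wt1, the Wilms tumour factor that marks mesothelium and visceral fat progenitors (chromosome 2, 105126529 to 105173616), stood at 0.197, 0.194 and 0.0365 CPM in iWAT 1 to 3 and 19.9, 21.6 and 24 CPM in eWAT 1 to 3 (log2 difference -7.25, SE 0.48, adjusted p = 0.00724). Bnc1, the zinc finger protein basonuclin, stood at 0.157, 0.0485 and 0.0729 CPM in iWAT against 17.9, 11.9 and 15.9 in eWAT (log2 difference -7.25, SE 0.43, adjusted p = 0.00724) and was even. Tcf21, a basic helix-loop-helix factor of visceral mesoderm, stood at 0.236, 0.0485 and 0 CPM in iWAT against 8.91, 8.58 and 8.36 in eWAT (log2 difference -6.43, SE 0.83, adjusted p = 0.0319). In each of the 3 the lowest eWAT library was at least 35.4 times the highest iWAT library. Gata5, a GATA factor, had no count in iWAT and 4.81, 2.98 and 6.11 CPM in eWAT, at least 116-fold lower in iWAT if the depot is given a floor of 3 counts (adjusted p = 0.0301). Isl1, a LIM homeobox factor, had 3 counts in iWAT and 463 in eWAT, for a depth-scaled ratio of 147 (adjusted p = 0.0145; 95% interval from counting 49.9 to 714). Gata6 was lower by a smaller margin (-1.41, adjusted p = 0.0448).

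Some secreted signals were higher in epididymal fat, as were the mesothelial markers (list median -6.77), and the part of mesothelial RNA in these signals was not tested. Rspo1, an R-spondin that amplifies Wnt signalling (chromosome 4, 124986430 to 125009099), stood at 3.38, 1.41 and 2.59 CPM in iWAT 1 to 3 and 47.7, 42.2 and 46.3 CPM in eWAT 1 to 3 (log2 difference -4.20, SE 0.34, adjusted p = 0.0109). Wnt2b, a Wnt ligand, stood at 3.07, 1.36 and 2.08 CPM in iWAT against 36.7, 38.9 and 41 in eWAT (log2 difference -4.15, SE 0.32, adjusted p = 0.0103), and Sfrp1, a secreted Wnt antagonist, at 8.78, 11.4 and 7.11 CPM in iWAT against 30.2, 36.3 and 30.5 in eWAT (log2 difference -1.83, SE 0.21, adjusted p = 0.0231). The agonists and the antagonist were each higher in all eWAT libraries, and with edgeR 3 of 18 Wnt genes were lower and 0 higher in iWAT. The list also had 4 members higher and 8 lower without overlap, beside 16% and 19.2% of all tested genes. At an unadjusted p under 0.05 in edgeR stood 4 higher and 6 lower, and DESeq2 called 3 higher and 6 lower. These compare with 29.3% and 20.7% of all tested genes in either direction. Log2 differences in the list ran from -4.20 to 6.16, and the highest member did not pass with edgeR. With iWAT 2 alone the list median was -0.24. Sfrp5, another antagonist, ranged widely in both depots at 30.3, 50.9 and 7.55 CPM in iWAT against 38.2, 16.9 and 40.3 in eWAT (log2 difference -0.11, adjusted p = 0.914).

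In the BMP, TGF-beta and activin list 4 of 20 genes were lower in iWAT and 0 higher with edgeR. DESeq2 called 1 higher and 9 lower, and 1 higher and 10 lower had an unadjusted p under 0.05 in edgeR. These compare with 20.7% and 29.3% of all tested genes in either direction. Without overlap lay 1 member higher and 12 lower, beside 16% and 19.2% of all tested genes. Log2 differences in the list ran from -3.73 to 6.02, and the highest member did not pass with edgeR. With iWAT 2 alone the list median was -0.48. Mesothelial markers were lower in iWAT along with these genes (11 of 12), and the part of mesothelial RNA was not tested. The ligand Bmp4 was even at 6.1, 6.93 and 5.76 CPM in iWAT against 21.8, 18.6 and 21.9 in eWAT (log2 difference -1.73, SE 0.16, adjusted p = 0.0145), and the ligand Tgfb3 at 20.1, 25.3 and 17.9 CPM in iWAT against 55.3, 47 and 56 in eWAT (log2 difference -1.32, SE 0.17, adjusted p = 0.0319). The antagonist Nog (noggin) had a larger difference, at 0.63, 1.26 and 0.365 CPM in iWAT against 10.4, 8.27 and 11 in eWAT (log2 difference -3.73, SE 0.49, adjusted p = 0.0319). A BMP ligand and a BMP antagonist were thus both higher in eWAT. Aldh1a2, which makes retinoic acid from retinal (chromosome 9, 71215789 to 71296243), was the 1 of 16 retinoid genes to pass and was even at 3.94, 5.14 and 3.72 CPM in iWAT 1 to 3 and 32.2, 29.7 and 31.9 CPM in eWAT 1 to 3 (log2 difference -2.87, SE 0.18, adjusted p = 0.00724). Adcyap1r1, the receptor of the peptide PACAP, was the 1 of 18 receptors that tune lipolysis to pass, at 46, 47.3 and 27.9 CPM in iWAT against 149.9, 136 and 134 in eWAT (log2 difference -1.79, SE 0.23, adjusted p = 0.0307). Before adjustment (p under 0.05), 2 retinoid genes were higher and 5 lower, and 2 of the receptors were higher and 5 lower. DESeq2 called 1 and 2 higher and 4 and 4 lower. The shares of all tested genes in either direction were again 29.3% and 20.7%.

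The even genes with the largest falls in iWAT included matrix, surface and peptide genes. Pkhd1l1, a large fibrocystin-like membrane protein, stood at 3.54, 2.23 and 1.9 CPM in iWAT 1 to 3 and 65.3, 73.7 and 84 CPM in eWAT 1 to 3 (log2 difference -4.86, SE 0.29, adjusted p = 0.00724). Fras1, a basement membrane protein of developing epithelia, stood at 0.63, 0.339 and 0.437 CPM in iWAT against 14.3, 15.2 and 21.3 in eWAT (log2 difference -5.15, SE 0.34, adjusted p = 0.00724). Penk, which encodes the precursor of the enkephalin opioid peptides, stood at 6.3, 10.1 and 5.1 CPM in iWAT against 88.5, 72.9 and 101 in eWAT (log2 difference -3.61, SE 0.31, adjusted p = 0.0119). In each of the 3 the lowest eWAT library was at least 7.23 times the highest iWAT library. Spock2, a proteoglycan of the testican family, stood at 9.56, 6.93 and 6.2 CPM in iWAT against 75.7, 60.2 and 72.2 in eWAT (log2 difference -3.20, SE 0.22, adjusted p = 0.00729), and Thbs1, the matrix glycoprotein thrombospondin 1, at 22.4, 26 and 27 CPM in iWAT against 181, 113 and 176 in eWAT (log2 difference -2.64, SE 0.22, adjusted p = 0.0119). Thbs1 was the 1 of 28 matrix genes to pass with edgeR. Before adjustment (p under 0.05), 2 matrix genes were higher and 11 lower, beside 29.3% of all tested genes in either direction. DESeq2 called 1 higher and 10 lower, beside 20.7%. The matrix list median was -0.80, and -0.07 with iWAT 2 alone. Ccbe1, a secreted protein needed for growth of lymphatic vessels, fell by 3.28 on the log2 scale (adjusted p = 0.00724), and C6, a complement component of the membrane attack complex, fell by 2.61 (adjusted p = 0.0153). Pdpn, the glycoprotein podoplanin of lymphatic endothelium and mesothelium, fell by 2.15 (adjusted p = 0.00724) and was the 1 of 6 lymphatic genes to pass. Tmem151a (log2 difference -6.11, adjusted p = 0.00724) and Megf6 (-2.76, adjusted p = 0.0141) were also among the 12 largest even falls, as were Bnc1 and Aldh1a2. Of the uneven leaders, Nkain4, which interacts with the sodium pump, and Lgals7, the epithelial lectin galectin 7, had log2 differences of -6.85 (adjusted p = 0.00853) and -6.98 (adjusted p = 0.0144). Mesothelial markers were lower in iWAT as well (list median -6.77), and the part of mesothelial RNA in these genes was not tested.

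Pan-adipocyte, white adipocyte and adipose hormone genes gave no call with edgeR in either direction. Of 16 pan-adipocyte genes 0 passed, of 11 white adipocyte genes 0 and of 18 adipose hormones and secreted proteins 0, with list medians of -0.56, -0.79 and -0.50. In the same order 1, 2 and 4 genes had an unadjusted p under 0.05, DESeq2 called 1, 2 and 4 and voom 16, 10 and 18, beside 29.3%, 20.7% and 74.6% of all tested genes. Adipoq, the gene of adiponectin, stood at 1289, 2074 and 817 CPM in iWAT 1 to 3 and 2130.0, 1998 and 1915 CPM in eWAT 1 to 3 (log2 difference -0.53, SE 0.37, adjusted p = 0.338). Lep, the gene of leptin, stood at 833, 1367 and 278 CPM in iWAT against 1431, 1004 and 1333 in eWAT (log2 difference -0.60, SE 0.56, adjusted p = 0.453). Both were lowest in iWAT 3 and within the eWAT range in iWAT 2. The same order, iWAT 2 first and iWAT 3 last, held among inguinal libraries for Retn, the gene of resistin (407, 631 and 248 CPM), Nnat, a small membrane protein (898, 1615 and 532 CPM), Cd36, a fatty acid transporter (2116, 3615 and 1290.3 CPM), and Lpl, lipoprotein lipase (4381, 7005 and 2761 CPM). Agt, which encodes angiotensinogen, was lower in every iWAT library without passing, at 39.2, 51 and 9.99 CPM in iWAT against 345, 266 and 277 in eWAT (log2 difference -3.15, SE 0.60, adjusted p = 0.0772). Adrb3, the beta-3 adrenergic receptor of adipocytes, did so too at 417, 547 and 177 CPM in iWAT against 1184, 939 and 969 in eWAT (log2 difference -1.44, SE 0.43, adjusted p = 0.125). The pan-adipocyte sum of iWAT 1 and 3 was below that of every eWAT library and that of iWAT 2 was above each of them, and the part of this in the adipocyte genes was not tested.

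Thermogenic and metabolic genes likewise passed in 0 cases with edgeR. In the thermogenic list, 0 of 19 genes passed (median 0.12). Ucp1, the uncoupling protein of brown and beige adipocytes, overlapped at 17.6, 35.3 and 20.7 CPM in iWAT 1 to 3 and 26.7, 96.8 and 27.4 CPM in eWAT 1 to 3 (log2 difference -1.04, SE 0.60, adjusted p = 0.264). Cidea, which coats lipid droplets, overlapped at 68.2, 253 and 93.2 CPM in iWAT against 31.1, 116 and 35.7 in eWAT (log2 difference 1.18, SE 0.72, adjusted p = 0.282). The highest Ucp1 level was in eWAT 2 and the highest Cidea level in iWAT 2. Fatty acid synthesis (17 genes, median -0.02), triglyceride synthesis and lipolysis (16, -0.73), fatty acid oxidation (19, -0.18), oxidative phosphorylation (30, -0.09) and glycolysis (17, -0.14) had 0 calls each. For these 5 lists and the thermogenic list, in this order, 2, 3, 1, 0, 1 and 2 genes had an unadjusted p under 0.05. DESeq2 called 1, 3, 1, 0, 0 and 2 and voom 7, 16, 16, 24, 13 and 7, beside 29.3%, 20.7% and 74.6% of all tested genes. Fasn, the fatty acid synthase, stood at 3779.7, 6589 and 2949 CPM in iWAT against 4163, 5064 and 2933 in eWAT (log2 difference 0.13, SE 0.42, adjusted p = 0.829), and Scd1, the stearoyl-CoA desaturase, at 9929, 16405 and 6816 CPM in iWAT against 11534, 12033 and 10601 in eWAT (log2 difference -0.04, SE 0.43, adjusted p = 0.946). With iWAT 2 as the only inguinal library, the list median was 0.48 for fatty acid oxidation, 0.94 for thermogenic genes and 0.39 for oxidative phosphorylation. For the 11 beige markers it was 1.27. The beige list includes Hoxc9 (1.52 with iWAT 2 alone) and Shox2 (5.52), which are given above among the homeobox genes.

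Other cell types and growth pathways gave few or no calls. No gene passed among 16 macrophage, 18 adipose progenitor, 11 blood endothelium, 16 skeletal muscle, 14 clock, 13 steroid and 19 IGF and imprinted growth genes. In this order 4, 9, 0, 5, 7, 1 and 4 genes had an unadjusted p under 0.05. DESeq2 called 2, 7, 0, 3, 3, 0 and 2 and voom 13, 17, 9, 3, 11, 8 and 16, beside 29.3%, 20.7% and 74.6% of all tested genes. Csf1r, the macrophage growth factor receptor, was a little lower in every iWAT library, at 203, 174 and 193 CPM in iWAT against 218, 211 and 217 in eWAT (log2 difference -0.18, adjusted p = 0.334). Lyz2, of the same list, overlapped at 960, 473 and 1029 CPM in iWAT against 502, 502 and 560 in eWAT (log2 difference 0.66, adjusted p = 0.215). The macrophage list had 4 positive and 12 negative differences. Of its genes with an unadjusted p under 0.05, 3 were higher and 1 lower, and DESeq2 called 2 higher and 0 lower. Cd34 and Ly6a, surface markers of adipose progenitors, had log2 differences of -0.91 (adjusted p = 0.151) and 0.29 (adjusted p = 0.201). Hspa1b, a heat shock gene with a near-identical copy that makes its reads uncertain, was the 1 of 14 immediate early and stress genes to pass, at 1.69, 2.23 and 1.57 CPM in iWAT against 7.89, 5.78 and 7.88 in eWAT (log2 difference -1.97, SE 0.26, adjusted p = 0.0325). Aqp5, a water channel of secretory epithelia, was the 1 of 9 tested salivary genes to pass, with 1 count in iWAT and 3.2, 5.82 and 2.98 CPM in eWAT, for a depth-scaled ratio of 286 (adjusted p = 0.016; 95% interval from counting 51 to 11341). It was present in all 3 eWAT libraries, whereas the sum of the salivary list was high in eWAT 2 alone.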

How the data were processed

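RNA was sequenced from 3 iWAT and 3 eWAT samples, and per the labels it was total RNA made into TruSeq libraries. The deposited table holds whole-number read counts per gene symbol and library, to which the authors applied no normalization that the values show. The submitters' processing notes name STAR 2.4.2a, HTSeq 0.6.1p1, the build mm10, bcl2fastq 1.8.3, edgeR and Picard 1.119, while tool roles, annotation and strand setting are not given in the sources used here. Without a strand setting, reads of overlapping genes cannot be told apart.

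Genes were kept with filterByExpr and tested by quasi-likelihood in edgeR 4.0.16 under R 4.3.3 (TMM factors, robust estimation, a mean per depot, 4 residual degrees of freedom). All adjusted p-values are Benjamini-Hochberg values over 14676 genes, with a threshold of 0.05. The tested genes hold 99.7% or more of every library, and the biological coefficient of variation was 33.2%, or 43.0% in iWAT and 17.0% in eWAT. The script was tested on simulated data. Alternatives were other scaling, filters, DESeq2 1.42.0, limma 3.58.1 voom with quality weights, a replicate block, all 12 libraries, iWAT 2 alone and leaving out each library.

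The comparison, gene lists, alternatives and naming rule were chosen with earlier results of these data known, and the GTPase list, En1, Krt18, Krt7 and Gata6 after their values were seen. The rule named, of genes past the threshold without overlap and with at least 10 CPM in the higher depot, the 12 largest differences in each direction, overall and among even genes, up to 4 members of each list, called members against their list, up to 2 high members of lists with no call, and a fixed set. Predicted models and antigen receptor segments were otherwise not named. Gene positions come from GENCODE on GRCm38, promoters from RefSeq on GRCm38.p6. Some items that the rule took are not reported here. No formal test for outlying samples was run in groups of 3, although library distances, quality weights and fits without each library are given.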

Additional observations from a re-analysis of the deposited data

How the results depend on the processing

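The 210 genes kept their direction under every alternative in which they were tested, which the lack of overlap between depots largely fixed in advance. The number of calls, 210 in the main fit, moved widely. DESeq2 size factors (199 genes), upper quartile scaling (220), no filter (157), a filter of at least 10 counts (210) and no robust estimation (229) stayed within 1.5 times of it. DESeq2 called 3040 genes (64.0% of them higher in iWAT, against 22.9%), of which 2591 did not overlap and 1157 were even. Voom with quality weights called 10941, 4841 and 2718 (50.6% higher), with a weight of 8.49 on iWAT 1 and 0.0865 on iWAT 2. All 12 libraries in a single fit gave 4277, 3363 and 1629 (61.5% higher), and iWAT 2 alone 1048, 1048 and 1010 (42.3% higher). Leaving out 1 library gave 0 to 9868 genes, 0 to 9866 without overlap and 0 to 8962 even. The share of genes higher in iWAT was 51.7% without iWAT 2. A span limit of 0.5 log2 units left 44 even genes. A replicate block gave 10 genes (40% higher), all 10 without overlap and 3 even, and kept 9 of the 210. Deviations from the depot mean correlated at -0.208, 0.122 and 0.183 between same-numbered samples, and not every sample correlated best with its own number. With 3 libraries a depot, such correlations cannot decide whether the replicate numbers pair the samples.

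Of 66 genes past the threshold that the naming rule took, all passed with DESeq2 and voom, 58 with iWAT 2 alone, 9 with the block, 10 without iWAT 1, 53 without iWAT 3 and 0 without any 1 eWAT library. No such gene changed sign, which the lack of overlap between depots largely fixed in advance. DESeq2 called 20.7% and voom 74.6% of all tested genes. Of all genes taken by the naming rule that did not pass, 21 changed sign with iWAT 2 alone, 2 with voom and 0 to 6 with 1 library left out, and those given in the text follow. With iWAT 2 alone the sign was opposite for Adipoq (0.0449), Cd36 (0.0966), Lep (0.13), Mki67 (-0.0397), Scd1 (0.53), Sfrp5 (0.68) and Top2a (-0.098). With voom weights the sign was opposite for Fasn (-0.0767). Leaving out 1 library gave log2 differences on both sides of 0, from -0.29 to 0.36 for Fasn, -0.46 to 0.21 for Scd1 and -0.77 to 0.35 for Sfrp5. The cause was not tested. Over all genes the median log2 difference was 0.01 (TMM), -0.04 (upper quartile) and 0.02 (DESeq2 factors). With 3 libraries a depot and a coefficient of variation of 43.0% in iWAT, small inguinal differences could not be detected.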

Other observations

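Levels of the leading genes in the brown depots of the same survey, the interscapular (iBAT) and supraclavicular (scBAT) pads, are given here as mean ± SD (n = 3 libraries a depot), scaled over all 12 libraries. Hoxc10, at 20.9 ± 12.8 CPM in iWAT, had 0.0 counts in either brown pad. Tbx15 stood at 7.82 ± 3.43 and 18.4 ± 8.96 CPM in the brown pads, against 25.1 ± 13.1 in iWAT and 0.81 ± 0.365 in eWAT. Igtp stood at 42.9 ± 4.01 and 57.8 ± 5.39 CPM in the brown pads, against 107 ± 21.5 in iWAT and 35.8 ± 2.62 in eWAT. Penk stood at 1.85 ± 0.168 and 4.21 ± 0.464 CPM in the brown pads, against 79.2 ± 12.6 in eWAT, and Aldh1a2 at 0.252 ± 0.127 and 0.629 ± 0.129, against 28.3 ± 1.23. These differences were not tested.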
